A study of Gallus gallus with 15 samples.

Results

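The genes described here carry pyruvate into the mitochondrion, turn it into acetyl-CoA and oxidise that acetyl-CoA in the citrate cycle. They were chosen by name, as 31 listed genes of the cycle, the pyruvate dehydrogenase complex with its kinases and phosphatases, the pyruvate carrier and the linked aspartate aminotransferases. Of these, 29 had a row among the 24154 gene rows of the read-count table, and IDH3G and PDK2 had none under those symbols and were not analysed. Liver RNA of broiler breeder hens, which lay the eggs that meat chickens hatch from, was sequenced in 15 libraries at 65 weeks of age. The 5 control libraries came from hens given metformin at 0 mg/kg body weight and the 10 metformin libraries from hens given 75 mg/kg body weight, mixed into the diet for 40 weeks from 25 weeks of age. Each treatment had 45 hens. The labels do not say whether a library holds 1 hen or a pool, so a p-value covers only how far these samples spread.

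Pyruvate from glycolysis crosses the inner mitochondrial membrane through a carrier built of MPC1 and MPC2. The pyruvate dehydrogenase complex then splits off carbon dioxide and makes acetyl-CoA. Its kinases switch it off by phosphorylating the E1 alpha subunit, and its phosphatases switch it back on. Citrate synthase joins acetyl-CoA to oxaloacetate, and the dehydrogenases of the cycle pass electrons to the respiratory chain. In liver the same intermediates also feed glucose, fatty acid and amino acid synthesis, and metformin is a glucose-lowering drug known in mammals for acting on liver mitochondria.

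Gene reads ran from 21435678 to 26494240 per control library and from 8023809 to 41041301 per metformin library. The share of reads that fell in no gene set the libraries apart. It was 27.8% to 36.3% in the 5 controls and 37.0% to 43.5% in metformin 1, 3 and 4, which together are called the middle set. In metformin 2 and 5, the low set, it was 14.6% to 17.5%, and in metformin 6 to 10, the high set, 51.5% to 55.1%. Both outer sets lacked controls, and for those 7 libraries metformin and library set cannot be told apart. Fold changes are therefore given over all libraries and set-adjusted, that is, with the set as a covariate, which compares the controls with metformin 1, 3 and 4. Within the middle set the share was also higher in metformin 1, 3 and 4 than in every control. The covariate does not remove that difference, and its part in the set-adjusted and middle-set values was not tested.

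The sums of some tissue markers also differed between the sets. Of 15 hepatocyte markers 14 were in the table, none of them at 0 in any library, and their summed level was 90186 to 134742 CPM (reads scaled to library size with TMM factors) in controls and 57558 to 95723 CPM in metformin 1, 3 and 4. It was 127031 to 133239 CPM in the low set and 96730 to 164891 CPM in the high set. Of 12 leukocyte markers 11 were in the table, summing to 616 to 975 CPM in controls, 504 to 746 CPM in metformin 1, 3 and 4, 795 to 808 CPM in the low set and 451 to 825 CPM in the high set, with CD163 at 0 in 5 libraries. The 8 of 12 erythrocyte markers in the table summed to 287 to 1350 CPM in controls, 289 to 666 CPM in metformin 1, 3 and 4, 167 to 169 CPM in the low set and 162 to 610 CPM in the high set. The 9 of 10 heterophil and thrombocyte markers in the table summed to 48.6 to 135 CPM in controls, 44.0 to 75.2 CPM in metformin 1, 3 and 4, 24.3 to 39.8 CPM in the low set and 14.2 to 103 CPM in the high set, with CATHB1 at 0 in all 15 libraries. All 6 bile duct markers were in the table, and their sums were 66.6 to 121, 48.0 to 94.8, 46.5 to 47.9 and 54.4 to 79.0 CPM in the same order of groups. The 8 endothelial markers summed to 233 to 317, 218 to 249.6, 251 to 396 and 128 to 279 CPM, and the 8 stellate and fibroblast markers to 211 to 416, 259 to 331, 258 to 477 and 205 to 626 CPM. The low set thus lay below every control for the sums of heterophil and thrombocyte, erythrocyte and bile duct markers. Metformin 1 and 3 lay below every control for the hepatocyte sum, and metformin 4 lay within the control range. Set-adjusted, 12 of the 14 hepatocyte markers had negative log2 fold changes and 2 positive, with 0 called by edgeR. Their median was -0.47, beside -0.03 for all genes tested. Over all libraries, the means of genes of 1 list could move in opposite directions. Mean APOA1 was 11289 CPM in controls and 4694 CPM with metformin, and mean APOB was 5372 and 10860 CPM. Mean CD74, the largest part of the leukocyte sum, was 574 and 401 CPM, and mean MARCO was 19.5 and 46.9 CPM. The part of these shifts in the results below was not tested, and in whole liver fewer cells of a type cannot be told apart from less RNA per cell.

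Over all libraries, edgeR called 3 of the 5 pyruvate dehydrogenase complex subunits higher and the carrier subunit MPC1 lower. All 29 genes passed the filter on low counts. With metformin 10 rose and 1 fell at an adjusted p under 0.05 (edgeR quasi-likelihood test, Benjamini-Hochberg adjustment over all genes), which is 34.5% and 3.45% of the 29 against 12.5% and 5.73% of the 14432 genes tested. The genes that rose were the complex subunits PDHA1, PDHB and DLAT, the kinases PDK1 and PDK3, the phosphatase PDP2, the cycle genes CS, IDH3A and SUCLA2, and the aminotransferase GOT2. Across all 29 genes the log2 fold changes had a median of 0.50, beside 0.03 for all genes tested.

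With the library set as a covariate these calls were lost. Set-adjusted, edgeR called 0 of the 29 genes higher and 0 lower, beside 0.0277% of all genes called higher and 0.00693% called lower. At an unadjusted p under 0.05, 4 were higher (CS, IDH3A, SUCLA2 and FH) and 4 lower (IDH1, SUCLG1, PDK4 and MPC1), each 13.8% of the 29, beside 5.74% and 5.89% of all genes. DESeq2 with the same covariate called CS higher and IDH1, PDK4 and MPC1 lower, beside 1.03% of all genes called higher and 0.519% called lower by that tool. The set-adjusted median of the 29 was -0.03, as was that of all genes, with 13 positive and 16 negative values. A fit of the middle set only compares the same libraries, so by design its values lie close to the set-adjusted ones. They were within 0.03 for every listed gene. That fit called 0 of 29 by edgeR, beside 0% of all genes called higher and 0.00734% called lower. At an unadjusted p under 0.05 it had 3 higher and 3 lower, beside 5.3% and 4.91% of all genes.

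The difference between library sets, all 3 of which hold metformin libraries, was itself large for these genes. A test of both set terms, added after seeing the data, passed in 21 of the 29 (72.4%, edgeR adjusted p under 0.05), beside 52.4% of all genes. With the group in the fit, these terms compare each outer set with the metformin libraries of the middle set. Of those 21, 18 were higher in the low set than in those libraries and 16 higher in the high set. Of the 10 genes called higher over all libraries, 8 passed this test and CS and SUCLA2 did not.

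**Figure D1:**
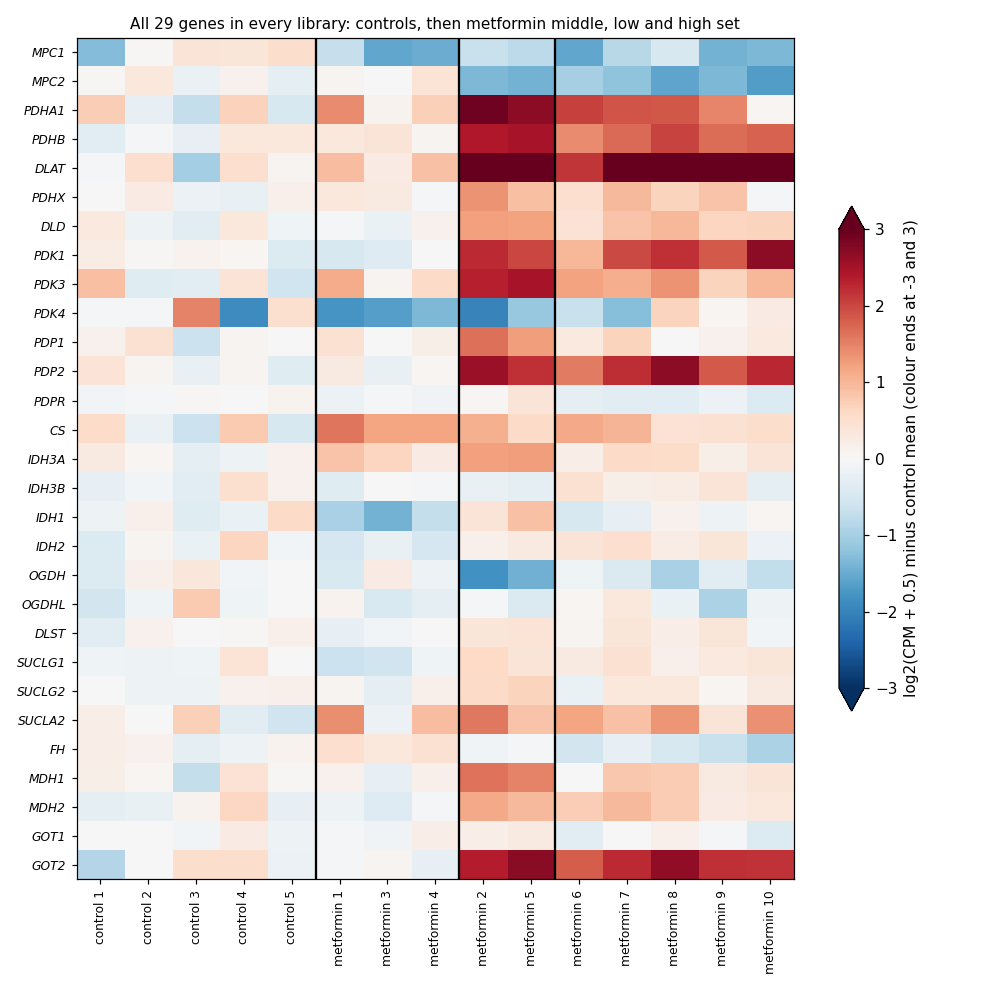
Each cell shows 1 of the 29 genes (rows, ordered by role) in 1 library (columns) as log2(CPM + 0.5) minus the mean of the 5 controls, red for higher and blue for lower, with black lines between controls and the metformin middle, low and high sets. DLAT, PDHB, PDP2, PDK1 and GOT2 are red in the low and high sets and pale in metformin 1, 3 and 4, while MPC1 is blue in all 10 metformin libraries and in control 1.

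The pyruvate carrier gave the only fall called by edgeR over all 15 libraries. MPC1, an obligate subunit of the carrier, had 77.9, 200.0, 252, 248 and 280.1 CPM in controls 1 to 5. In metformin 1, 3 and 4 it had 120.1, 65.0 and 69.3 CPM, in the low set 121 and 113 CPM, and in the high set 65.7, 108, 139, 72.1 and 76.0 CPM. Controls 2 to 5 lay above every metformin library, and control 1 lay among them, so the groups overlapped through that library alone. The means were 212 ± 80.05 CPM (SD, n = 5) and 94.9 ± 27.9 CPM (SD, n = 10), a log2 fold change of -1.16 ± 0.27 (SE, edgeR adjusted p = 0.0238). This call was lost without control 2, 3, 4 or 5, with an edgeR adjusted p of up to 0.0719. Set-adjusted the log2 fold change was of like size, -1.32 ± 0.36 (edgeR adjusted p = 0.170), and without control 1 it was -1.53 (adjusted p = 0.0103). That fit called 166 genes higher and 35 lower over all genes, against 4 and 1 with all libraries. Without any other single library MPC1 did not pass set-adjusted, with an edgeR adjusted p of up to 0.373. MPC1 did not differ detectably between the metformin libraries of the different sets (edgeR test of the set terms, adjusted p = 0.613).

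MPC2, the partner subunit, behaved differently across the libraries. Its controls had 492, 593, 419, 521 and 393 CPM, and metformin 1, 3 and 4 had 504, 479 and 636 CPM, within or above the control range. The low set had 189 and 177 CPM and the high set 241, 208, 160.2, 188 and 149.6 CPM, all below every control. Over all libraries its log2 fold change was -0.72 ± 0.35 (edgeR adjusted p = 0.131), and set-adjusted it was 0.16 ± 0.20 (adjusted p = 0.831). Without metformin 4 edgeR called MPC2 lower (-0.92, adjusted p = 0.0356), beside 1556 of 14274 genes called lower. Over all libraries limma voom with quality weights did so too (-1.23, adjusted p = 0.000359), beside 4001 of 14432 genes.

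Within the pyruvate dehydrogenase complex, DLAT, the E2 subunit that carries lipoic acid and forms acetyl-CoA, had the largest fold change of the 29 genes. Its controls had 6.22, 9.48, 2.96, 9.38 and 6.91 CPM, and metformin 1, 3 and 4 had 12.9, 7.85 and 12.4 CPM. Levels in the low set were 201 and 199 CPM, and the high set 30.6, 73.4, 106, 57.7 and 93.4 CPM. Of the 10 metformin libraries 9 lay above all controls, yet the low and high sets were far above both the controls and the other metformin libraries. The all-library log2 fold change was 3.51 ± 0.79 (edgeR adjusted p = 0.0225), an 11.4-fold difference, and the set-adjusted one was 0.67 ± 0.36 (adjusted p = 0.511).

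PDHB, the E1 beta subunit, followed the same order. It had 30.2, 37.7, 32.6, 48.3 and 47.9 CPM in controls and 48.0, 50.8 and 41.1 CPM in metformin 1, 3 and 4. Low-set levels were 207 and 215 CPM and the high set 105, 128, 160.3, 124 and 133 CPM, so all 7 libraries of these sets lay above all controls. Its log2 fold change was 1.62 ± 0.39 over all libraries (edgeR adjusted p = 0.0249) and 0.24 ± 0.19 set-adjusted (adjusted p = 0.679).

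PDHA1, the E1 alpha subunit that the kinases phosphorylate, varied more within groups. Controls had 88.2, 44.6, 31.9, 86.1 and 37.5 CPM, metformin 1, 3 and 4 had 142, 56.7 and 86.5 CPM, the low set 399 and 341 CPM, and the high set 219.9, 195, 194, 145 and 55.3 CPM. Metformin 3, 4 and 10 lay inside the control range and the other 7 above it. The log2 fold change was 1.67 ± 0.48 (edgeR adjusted p = 0.0324), and set-adjusted it was 0.72 ± 0.41 (adjusted p = 0.532), or 0.31 without metformin 1. PDHX, which binds the E3 subunit to the core, and DLD, the E3 subunit shared with the oxoglutarate and branched-chain complexes, did not pass with edgeR. PDHX ranged from 41.9 to 58.6 CPM in controls and 46.9 to 126 CPM with metformin (log2 fold change 0.63, adjusted p = 0.0591), and DLD from 52.7 to 83.8 and from 57.9 to 158 CPM (0.65, adjusted p = 0.0723). Their set-adjusted values were 0.18 and -0.06. Over all libraries DESeq2 called both higher (adjusted p = 0.0306 for PDHX and 0.0399 for DLD), beside 18% of all genes. So did limma voom with quality weights (adjusted p = 0.00533 and 0.00102), beside 3323 of 14432 genes called higher.

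The kinases did not move together. PDK1, a kinase known in mammals as a hypoxia-inducible gene, was low in controls at 1.28, 1.06, 1.16, 1.09 and 0.658 CPM and in metformin 1, 3 and 4 at 0.5996, 0.683 and 1.06 CPM. It reached 6.81 and 5.68 CPM in the low set and 2.55, 5.53, 6.49, 4.98 and 9.44 CPM in the high set. Every low-set and high-set library was above all controls, and no library of metformin 1, 3 and 4 was. Its log2 fold change was 2.05 ± 0.62 over all libraries (edgeR adjusted p = 0.0371) and -0.41 ± 0.42 set-adjusted (adjusted p = 0.774), so the sign turned. PDK3, another kinase of the complex, had 26.4, 10.7, 10.8, 18.7 and 9.12 CPM in controls and 30.9, 14.8 and 21.0 CPM in metformin 1, 3 and 4. Its low-set levels were 72.6 and 80.1 CPM and the high set 32.6, 30.3, 36.6, 22.5 and 28.3 CPM. All but metformin 3, 4 and 9 exceeded the highest control, and the log2 fold change was 1.29 ± 0.40 (adjusted p = 0.0396), with 0.55 ± 0.31 set-adjusted (adjusted p = 0.523) and 0.24 without metformin 1.

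PDK4, the kinase that rises in mammalian liver with fasting and fatty acid use, pointed the other way from PDK1 and PDK3 over all libraries. Set-adjusted, PDK1 and PDK4 both had negative values and PDK3 a positive one. Controls spread widely, at 46.9, 46.9, 137, 12.8 and 67.9 CPM. Metformin 1, 3 and 4 had 13.9, 15.2 and 18.6 CPM, the low set 11.8 and 21.9 CPM, and the high set 30.3, 19.7, 76.8, 50.3 and 57.7 CPM. The groups overlapped at both ends, with control 4 below all metformin libraries but metformin 2 and metformin 8, 9 and 10 above controls 1 and 2. PDK4 did not pass over all libraries (log2 fold change -0.98 ± 0.49, edgeR adjusted p = 0.150, and -0.47 without control 3). Set-adjusted it had the lowest value of the 29, -1.97 ± 0.57 (adjusted p = 0.178), and -1.46 without control 3.

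Of the phosphatase genes, PDP2, a catalytic subunit, rose over all libraries. It had 34.7, 27.7, 22.5, 27.8 and 20.4 CPM in controls, 31.7, 22.4 and 27.3 CPM in metformin 1, 3 and 4, 161 and 120.3 CPM in the low set and 78.1, 122, 172, 94.2 and 127 CPM in the high set. Metformin 1, 3 and 4 thus lay inside the control range and the other 7 above it. The log2 fold changes were 1.84 ± 0.47 (edgeR adjusted p = 0.0274) and 0.03 ± 0.24 set-adjusted (adjusted p = 0.987). PDP1, the other catalytic subunit, had 6.05 to 13.6 CPM in controls and 9.83 to 31.6 CPM with metformin (0.58, adjusted p = 0.156, and 0.19 set-adjusted). PDPR, the regulatory subunit, had the smallest all-library fold change of the phosphatase genes (-0.13, adjusted p = 0.511, and -0.11 set-adjusted). It ranged from 25.8 to 29.8 CPM in controls and 20.4 to 36.0 CPM with metformin. Metformin 1, 4 and 6 to 10 lay below every control and metformin 5 above. PDPR differed between the metformin libraries of the different sets (edgeR test of the set terms, adjusted p = 0.0246).

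**Figure D2:**
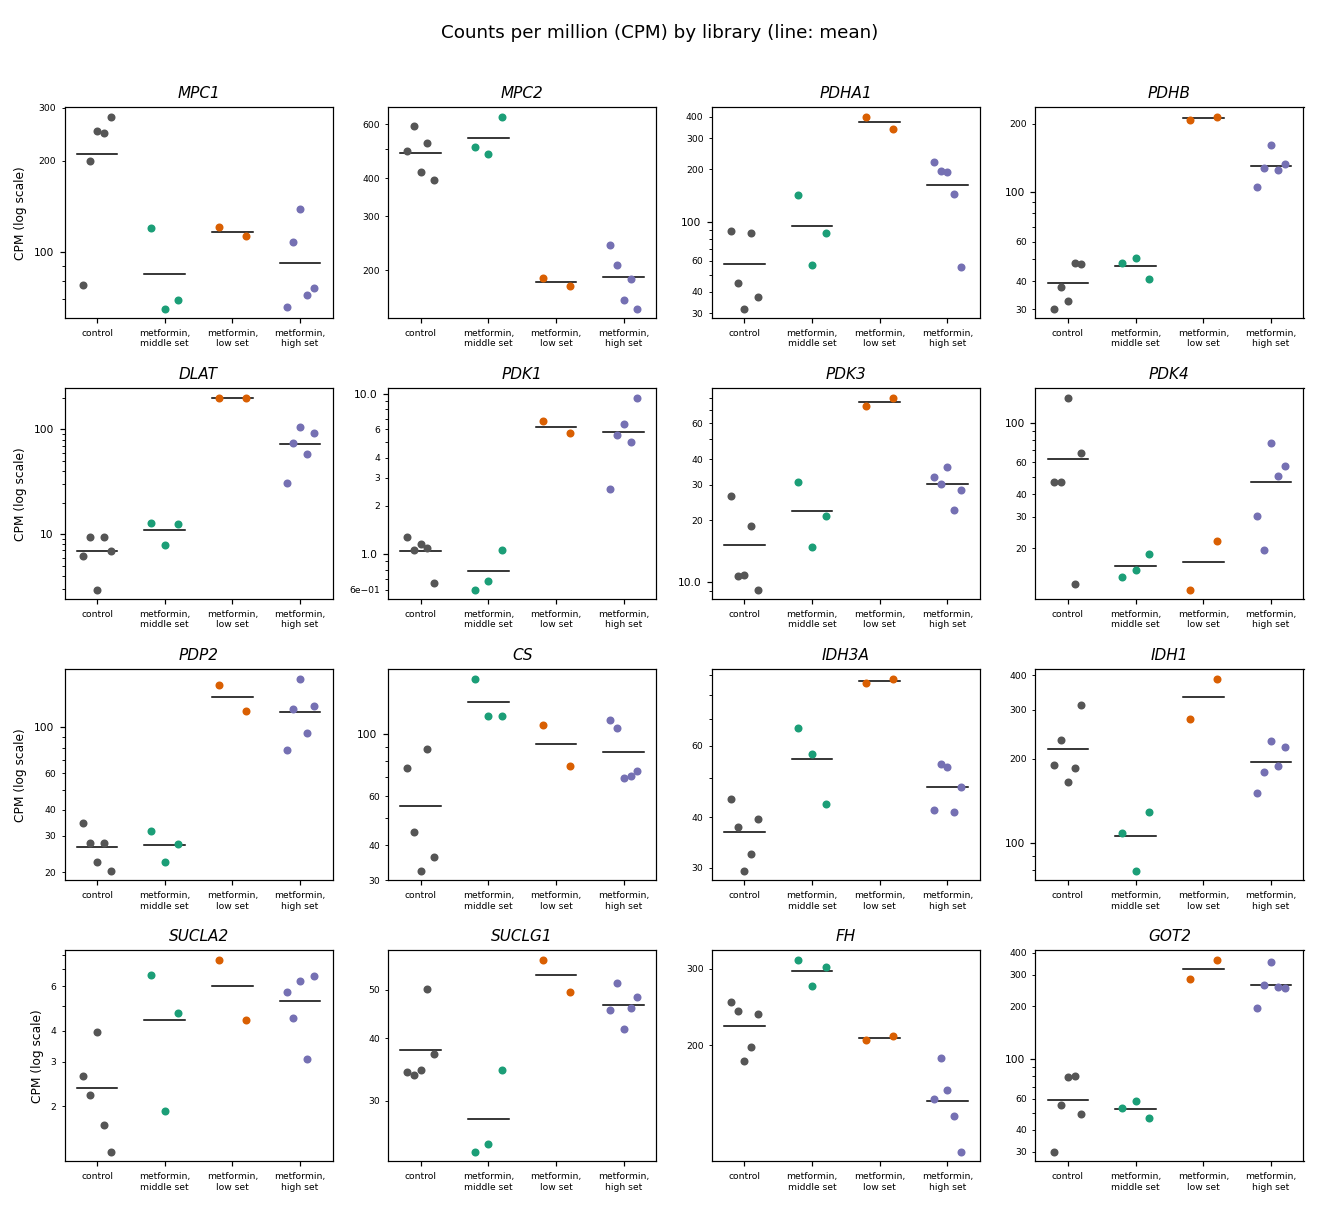
Each point is 1 library, with CPM on a log scale, for 16 of the genes. Points are grouped as controls and as the metformin middle, low and high sets, and the black line is the group mean. CS, MPC1, PDK4, IDH1, FH, SUCLG1, IDH3A and SUCLA2, among others, differ between controls and metformin 1, 3 and 4 in their means. PDP2 and GOT2 differ clearly only in the low and high sets.

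At the entry to the cycle, CS, citrate synthase, rose over all libraries and had the highest set-adjusted value of the 29. Its controls had 75.6, 44.7, 32.4, 88.4 and 36.3 CPM. Metformin 1, 3 and 4 had 158, 116 and 116 CPM, the low set 108 and 76.7 CPM, and the high set 113, 105, 69.5, 71.0 and 73.7 CPM. Metformin 1, 3 and 4 were all above the highest control, and the other sets overlapped with controls 1 and 4. Means were 55.5 ± 25.0 CPM (SD, n = 5) and 101 ± 28.1 CPM (SD, n = 10), a log2 fold change of 0.86 ± 0.27 (edgeR adjusted p = 0.0409) and, set-adjusted, 1.23 ± 0.30 (adjusted p = 0.121, and 1.36 with adjusted p = 0.0377 without control 1). Without any other single library CS did not pass set-adjusted, with an edgeR adjusted p of up to 0.346.

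Of the isocitrate dehydrogenases, 1 of 4 was called over all libraries. IDH3A, the catalytic subunit of the NAD-dependent enzyme of the cycle, had 44.2, 37.9, 29.5, 32.4 and 39.5 CPM in controls and 66.4, 57.4 and 43.1 CPM in metformin 1, 3 and 4. The low set had 85.8 and 88.0 CPM and the high set 41.8, 54.2, 53.3, 41.2 and 47.6 CPM. In 7 of 10 metformin libraries IDH3A was above all controls, and its log2 fold changes were close in both fits, at 0.66 ± 0.21 (edgeR adjusted p = 0.0424) and 0.60 ± 0.18 set-adjusted (adjusted p = 0.188). IDH3B, the structural partner, had 36.1 to 63.2 CPM in controls and 34.7 to 61.5 CPM with metformin, with means of 45.8 ± 11.0 and 45.9 ± 9.74 CPM and a set-adjusted value of -0.16.

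IDH1, the cytosolic NADP-dependent enzyme, did not pass over all libraries (-0.15 ± 0.31, edgeR adjusted p = 0.724). In controls it had 189.7, 234, 165, 185 and 313 CPM, and in metformin 1, 3 and 4 it had 108, 79.3 and 129 CPM, each below every control. The low set had 277 and 388 CPM and the high set 151, 179, 231, 189 and 221 CPM, inside or near the control range. The set-adjusted value was -1.04 ± 0.24 (adjusted p = 0.112), the smallest unadjusted p of the 29 genes at 0.000543, and without control 1 it passed at -1.09 (adjusted p = 0.0485). Without any other single library IDH1 did not pass set-adjusted, with an edgeR adjusted p of up to 0.29. IDH2, the mitochondrial NADP-dependent enzyme, had 255 to 527 CPM in controls and 239 to 480.3 CPM with metformin, with log2 fold changes of 0.04 and -0.45 set-adjusted. The ratio of IDH1 to IDH2 inside a library did not pass over all libraries (difference -0.30, exact permutation test, adjusted p = 0.540). In the middle set, where the design cannot pass 1 pair alone, the difference was -0.62 (exact permutation test, adjusted p = 0.457).

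The oxoglutarate dehydrogenase complex gave no edgeR call over all 15 libraries or set-adjusted. OGDH, its E1 subunit, ranged from 215 to 362 CPM in controls and 81.1 to 342 CPM with metformin (-0.53 ± 0.28, edgeR adjusted p = 0.163, and -0.11 set-adjusted), and its 2 lowest libraries were those of the low set. DLST, the E2 subunit, was at 53.8 to 75.0 and 57.1 to 89.5 CPM (0.15, adjusted p = 0.477, and -0.12 set-adjusted). OGDHL, an isoform of the E1 subunit, was scarcely detected, with 0 to 26 reads per library (-0.51, adjusted p = 0.533, and -0.56 set-adjusted). With limma voom with quality weights OGDH was called lower over all libraries (-0.61, adjusted p = 0.0169), beside 4001 of 14432 genes called lower.

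Of the succinyl-CoA synthetase genes, SUCLA2, the beta subunit that makes ATP, rose from a low level. It had 2.64, 2.23, 3.94, 1.68 and 1.32 CPM in controls, 6.66, 1.91 and 4.70 CPM in metformin 1, 3 and 4, 7.64 and 4.40 CPM in the low set and 5.69, 4.50, 6.32, 3.07 and 6.60 CPM in the high set. Metformin 3 and 9 were within the control range and the other 8 above it. The log2 fold change was 1.12 ± 0.35 (edgeR adjusted p = 0.0386) and, set-adjusted, 0.90 ± 0.42 (adjusted p = 0.419), which came to 0.50 without metformin 1. Counts were small, 28 to 375 reads per library. SUCLG2, the beta subunit that makes GTP, had 67.2 to 82.9 CPM in controls and 61.6 to 119 CPM with metformin (0.22, adjusted p = 0.326, and -0.0069 set-adjusted).

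SUCLG1, the alpha subunit shared by both forms, had 34.2, 33.8, 34.5, 50.2 and 37.1 CPM in controls and 23.7, 24.6 and 34.5 CPM in metformin 1, 3 and 4. The low set had 57.4 and 49.4 CPM and the high set 45.7, 51.7, 41.8, 46.1 and 48.3 CPM. Metformin 2 and 7 thus lay above every control and metformin 1 and 3 below, while the other metformin libraries lay inside the control range. The log2 fold changes were 0.16 ± 0.21 (edgeR adjusted p = 0.592) and -0.46 ± 0.18 set-adjusted (adjusted p = 0.321).

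FH, fumarase, also divided the metformin libraries. Controls had 252, 239.6, 184, 198 and 236 CPM, and metformin 1, 3 and 4 had 314, 274 and 302 CPM, each above every control. The low set had 205 and 210.4 CPM and the high set 151, 187, 157, 137 and 114 CPM. The log2 fold change was -0.11 ± 0.24 over all libraries (edgeR adjusted p = 0.739) and 0.42 ± 0.18 set-adjusted (adjusted p = 0.373). With limma voom with quality weights FH was called lower over all libraries (-0.42, adjusted p = 0.0458), beside 4001 of 14432 genes called lower. CS and FH were the 2 of 29 genes with metformin 1, 3 and 4 all above all controls and IDH1 the 1 with all below, beside 2.99% and 3.56% of all genes. Over all 10 metformin libraries 0 of 29 were fully above and 0 fully below the controls, beside 0.651% and 1.05% of all genes.

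Malate dehydrogenase and the aspartate aminotransferases form the shuttle that moves reducing equivalents and oxaloacetate carbon across the mitochondrial membrane. GOT2, the mitochondrial aminotransferase, had 30.0, 54.9, 79.8, 80.4 and 49.2 CPM in controls and 53.0, 58.2 and 46.7 CPM in metformin 1, 3 and 4. It reached 286 and 365 CPM in the low set, and the high set had 195, 265, 355, 256 and 251 CPM. The 7 libraries of these sets were above all controls and metformin 1, 3 and 4 were within them, and the log2 fold change went from 1.86 ± 0.51 (edgeR adjusted p = 0.0301) to -0.16 ± 0.27 set-adjusted (adjusted p = 0.882). GOT1, the cytosolic aminotransferase, had means of 118 ± 13.1 and 117 ± 18.03 CPM and a set-adjusted value of 0.010. MDH1, the cytosolic malate dehydrogenase, had 132 to 292 CPM in controls and 183 to 676 CPM with metformin (0.63, adjusted p = 0.155), and MDH2, the mitochondrial enzyme, 68.9 to 131 and 63.8 to 186 CPM (0.50, adjusted p = 0.173). Set-adjusted they were at -0.03 and -0.24.

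**Figure D3:**
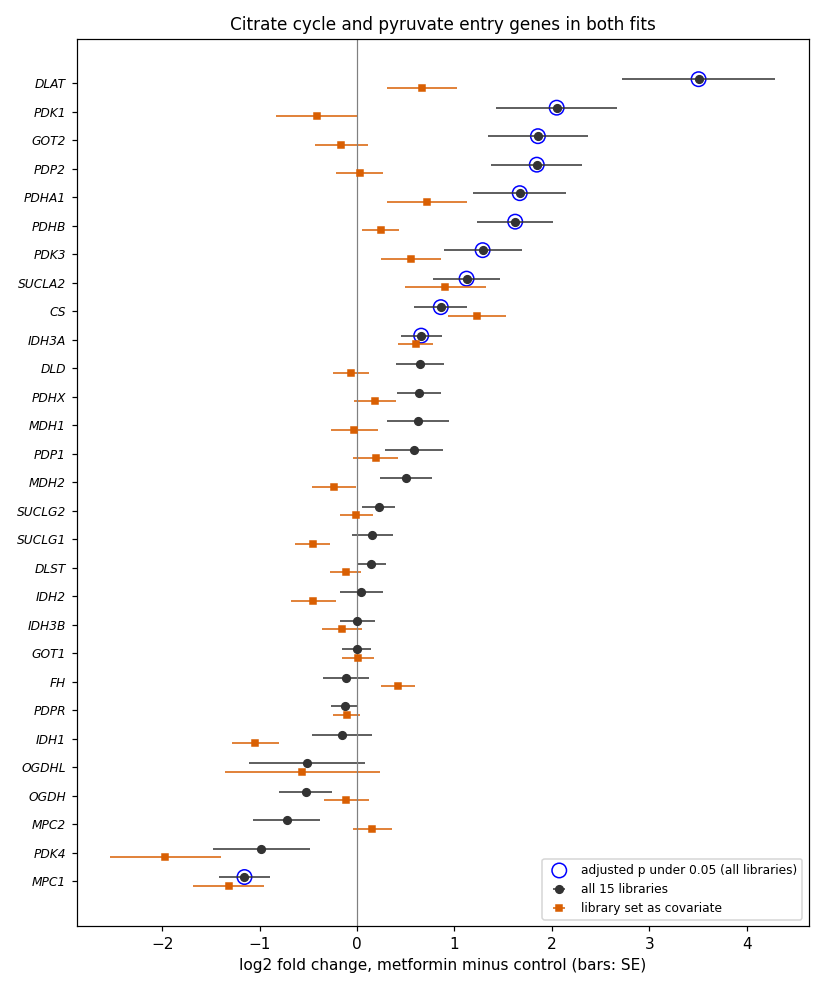
The horizontal axis is the log2 fold change of metformin against control, with bars of 1 SE, for all 29 genes (vertical axis), as black points over all 15 libraries and orange squares with the library set as a covariate. Blue rings mark the 11 genes called over all libraries. The orange squares of DLAT, PDK1, GOT2 and PDP2 lie far left of their black points, and those of MPC1, IDH3A, SUCLA2 and CS lie close to theirs.

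The count of calls rested on single libraries, for these genes and for all genes. Without control 2, 3, 4 or 5, edgeR called 0 of the listed genes in either direction, while 11 to 13 were higher and 1 to 2 lower at an unadjusted p under 0.05, and the smallest adjusted p was 0.0504 to 0.0713. Over all genes these 4 fits called 2 higher and 4 lower, 233 and 182, 16 and 39, and 0 and 0. With all 15 libraries edgeR called 1805 and 827 of 14432 genes. DESeq2, run on all 15 libraries, called 12 higher and 1 lower, beside 18% and 6.65% of all genes. Without control 1, 4 were higher and 1 lower, without metformin 7, 5 and 1, without metformin 8, 6 and 1, and without metformin 4, 12 and 2. In the same order, calls over all genes were 540 and 336 of 14632, 971 and 329 of 13912, 870 and 294 of 13938, and 2570 and 1556 of 14274. Without the high set 0 were called (12 higher and 2 lower at an unadjusted p under 0.05, smallest adjusted p = 0.203), and without the low set PDHB, DLAT, PDP2 and GOT2 were higher and MPC1 lower. Over all genes 0 of 13305 were called without the high set, and 1454 higher and 366 lower of 14067 without the low set. The log2 fold changes of the 11 called genes moved by less than 1.5 times without any single library. Where gene spans overlap, reads cannot be told apart without strand, and the counting step's strand setting was not found in the sources used here. Of the 27 genes matched by symbol to RefSeq on GRCg7b, a build other than the files', 8 had a span that overlapped a neighbour. These were CS with COQ10A, IDH3A with ACSBG1, PDHB with PXK, GOT2 with SLC38A7, IDH1 with LOC424111 and PDHX with APIP. PDK3 overlapped LOC121109094, and MDH1 overlapped WDPCP and LOC121110489. PDHA1 and MPC1, both called over all libraries, were not matched by symbol, so their spans were not checked.

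Partner genes were also compared inside each library, where the scaling of the library largely cancels. The 0.5 CPM added to each gene keeps it from cancelling fully, most so for genes of low CPM. The ratio of 8 pairs that share a complex, a step or a reaction in different compartments was taken as the log2 of CPM + 0.5, and its level also reflects the lengths of both genes, so only differences between groups are read. Over all libraries 1 of 8 passed a two-sided exact permutation test with Benjamini-Hochberg adjustment over the 8 pairs. DLAT rose relative to PDHX by 2.23 on the log2 scale, from -2.83 ± 0.57 in controls (SD, n = 5) to -0.60 ± 1.40 with metformin (SD, n = 10, exact permutation p = 0.00533, adjusted p = 0.0426), and was above all controls in 8 of 10 libraries. This call was lost without any 1 of controls 1, 2, 3 and 5 or of metformin 2 and 5 to 10, where 0 pairs passed, and 3 passed without metformin 3 and 2 without metformin 4. Its mean was -2.32 in metformin 1, 3 and 4, 0.88 in the low set and -0.16 in the high set.

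Other ratios fell short of the threshold. SUCLA2 against SUCLG2 differed by 0.77 (exact permutation p = 0.0213, adjusted p = 0.0604, above all controls in 5 of 10 libraries), and this difference was 0.73 in the middle set. GOT1 against GOT2 differed by -1.61 (exact permutation p = 0.0226, adjusted p = 0.0604, below all controls in 7 of 10), but by 0.09 in the middle set. IDH3A against IDH3B differed by 0.61 (exact permutation p = 0.0739, adjusted p = 0.148) and by 0.72 in the middle set. The ratio of the carrier subunits, MPC1 against MPC2, differed by -0.18 over all libraries (adjusted p = 0.811, exact permutation test) and by -1.41 in the middle set. Within the middle set 0 of 8 pairs passed and 0 had an unadjusted p under 0.05. There 5 controls against 3 metformin libraries allow 56 arrangements and a smallest p of 0.0179, which for a single pair adjusts to 0.143.

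**Figure D4:**
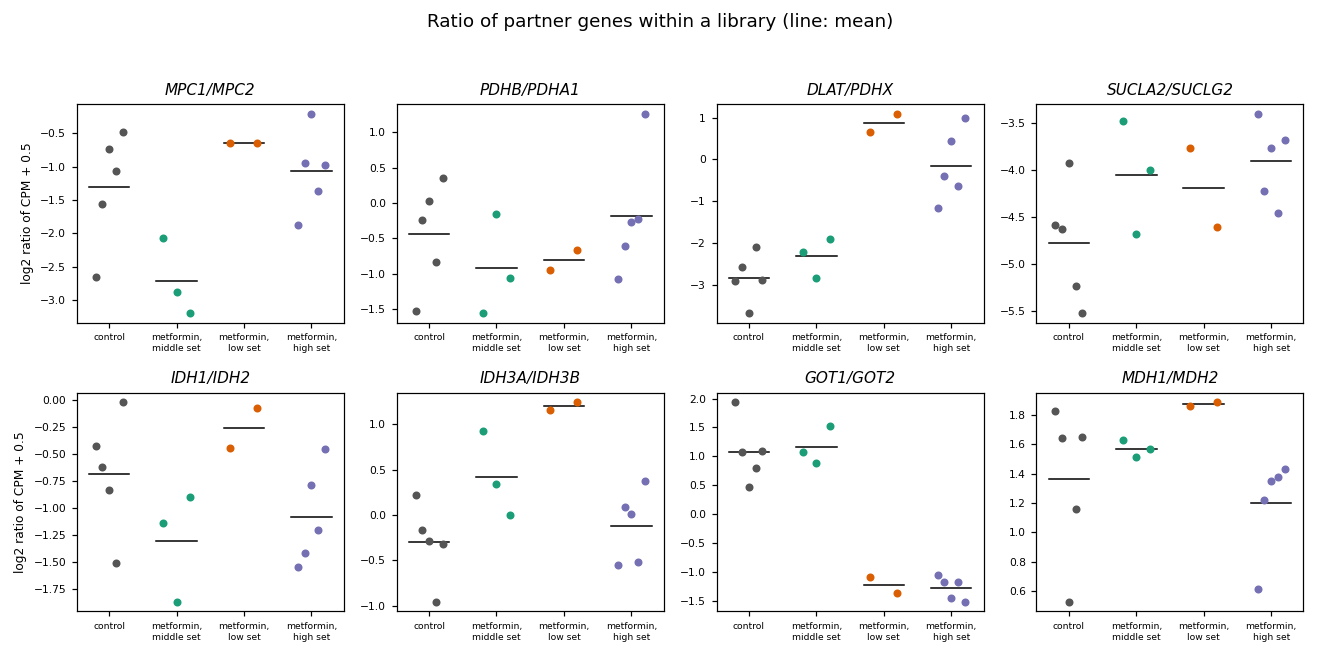
Each panel shows 1 pair, with the log2 ratio of CPM + 0.5 inside each library on the vertical axis and the library groups on the horizontal axis. Points are libraries and lines are group means. DLAT against PDHX and GOT1 against GOT2 separate the low and high sets from the other 8 libraries, and MPC1 against MPC2 is lowest in metformin 1, 3 and 4 and control 1.

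Neighbouring steps were read from lists of related genes. Of 22 tested cycle partners (aconitases, succinate dehydrogenase, carriers, anaplerotic and lactate enzymes) 5 rose and 2 fell over all libraries, beside 12.5% and 5.73% of all genes, with a median log2 fold change of 0.39, and set-adjusted 0 were called by edgeR and the median was -0.04. LDHB, a lactate dehydrogenase subunit that links lactate to pyruvate, had 309, 571, 1499, 319 and 676 CPM in controls and 134 to 259.6 CPM with metformin (median 172). All 10 metformin libraries were below all controls, as was so for 1.05% of all genes. LDHB fell by 1.85 on the log2 scale (edgeR adjusted p = 0.0180), with -1.69 set-adjusted (adjusted p = 0.157). Over all libraries its log2 fold change was -1.33 without control 3. On leaving out single libraries its edgeR adjusted p rose to as much as 0.0632. PC, pyruvate carboxylase, which makes oxaloacetate from pyruvate, had 3.62 to 5.85 CPM in controls, 5.20, 7.58 and 6.05 CPM in metformin 1, 3 and 4 and 10.4 to 34.4 CPM in the other sets. It rose by 1.77 (adjusted p = 0.0245, 0.42 set-adjusted). PCK2, mitochondrial PEP carboxykinase, rose by 2.46 (adjusted p = 0.0200, 0.70 set-adjusted), and GLUD1, glutamate dehydrogenase, by 2.92 (adjusted p = 0.0274, 0.16 set-adjusted).

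Among 11 tested genes of cofactor supply and related oxoacid dehydrogenases 2 rose and 0 fell, beside the same shares of all genes, with a median of 0.27, and -0.23 set-adjusted. DHTKD1, an oxoadipate dehydrogenase of lysine breakdown, rose by 0.99 (edgeR adjusted p = 0.0386) and had -0.06 set-adjusted. SLC19A2, a carrier for thiamine, the vitamin that these dehydrogenases need as a cofactor, had 1 read over all controls and 315 over all metformin libraries, of which metformin 1, 3 and 4 held 0. At equal library size that is a ratio of 186 (95% interval 33.2 to 7386 by the exact binomial method, which covers counting error only), with an edgeR adjusted p of 0.0259. Set-adjusted its adjusted p was 0.818, and no fold is given there because that comparison holds 1 read in all. Of 9 tested regulators of the kinase genes 1 rose and 0 fell, a share near the 12.5% of all genes called higher, with a median of -0.05. The 1 called was HIF1A, known in mammals as an activator of PDK1, with 7.34 to 12.4 CPM in controls, 10.9, 7.44 and 7.58 CPM in metformin 1, 3 and 4 and 24.3 to 45.8 CPM in the other sets (1.45, adjusted p = 0.0343, -0.15 set-adjusted).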

How the data were processed

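Raw read counts, 1 value per gene and library, are what the authors deposited. The submitters' processing notes name STAR 2.7.11b, HTSeq 0.12.3, Trim Galore 0.6.4, FastQC 0.12.0 and the builds GRCg6a and galGal6. RNA input was 200 ng for a stranded mRNA kit, per the labels' protocols. Sizes and tests left out the 5 rows at the table's end. Per library these held 14.6% to 55.1% of reads as lying in no gene, 2.29% to 12.0% as having several places and 0.411% to 0.870% as ambiguous.

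The main comparison used edgeR 4.0.16 under R 4.3.3 (quasi-likelihood test, TMM factors, default expression filter, 14432 genes tested), with calls at a Benjamini-Hochberg adjusted p under 0.05. SEs were taken from the log2 fold change and its F statistic. A gap over 5 percentage points in the share of reads lying in no gene was the border between library sets. The listed genes, other lists, pairs, sets and the rule for named genes were chosen with earlier results of these data known. By that rule all listed genes are given, with every library for MPC1, MPC2, PDK4, DLAT, CS, any called gene and any with a set-adjusted unadjusted p under 0.05, plus up to 4 called genes of each other list with the smallest p. Ratios were tested with scipy 1.17.1. Alternatives were DESeq2 1.42.0, limma 3.58.1 (voom with quality weights), other scaling (RLE, upper quartile), other filters (none, or CPM of 1 or more in 5 or more libraries), a block for replicate number, a pseudocount of 2 CPM for ratios, and leaving out each library. Leaving out the low or the high set, fitting each gene in the middle set only and testing the set terms were chosen after seeing the data. Calculations were tested on simulated data. No library pair agreed within sampling noise (smallest chi-square per degree of freedom 90.6 over 2000 genes). Depth limits the precision of OGDHL, PDK1 and SUCLA2 most.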

Additional observations from a re-analysis of the deposited data

Results flagged for a closer look

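In 58 groups of values (29 genes in controls and in metformin libraries), 3 held a library far from the others of its group, where chance flags about 1 in 20. CS was 157.8 CPM in metformin 1, the highest of the metformin libraries, with the next at 116 CPM and the lowest at 69.5 CPM. SUCLG1 was 50.2 CPM in control 4, with the next control at 37.1 CPM and the lowest at 33.8 CPM. PDPR was 36.0 CPM in metformin 5, with the next metformin library at 28.2 CPM and the lowest at 20.4 CPM.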

How the results depend on the processing

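Calls over all libraries were 10 higher and 1 lower. RLE and upper quartile factors and the CPM filter also gave 10 and 1, no filter 7 and 1, DESeq2 12 and 1, and voom 14 higher and 4 lower. With no filter CS, IDH3A and SUCLA2 were not called, and DESeq2 added PDHX and DLD. Voom also called PDHX, DLD, MDH1 and MDH2 higher and MPC2, OGDH and FH lower. Over all genes voom called 3323 higher and 4001 lower of 14432, against 1805 and 827 by edgeR, and DESeq2 3095 and 1141 of 17170. RLE factors gave 2048 and 748 of 14432 and upper quartile factors 1858 and 792. The CPM filter gave 1872 and 840 of 13197, and no filter 1295 and 659 of 20315. Without the low set 4 were higher and 1 lower, beside 1454 and 366 of 14067 genes, and without the high set 0 and 0, beside 0 and 0 of 13305. DESeq2 called 1 higher and 3 lower set-adjusted, and 1 higher and 2 lower in the middle set, beside 161 and 81 of 15613 genes and 106 and 64 of 14131. On leaving out each library in turn, calls ranged from 0 to 12 higher and 0 to 2 lower over all libraries, from 0 to 1 and 0 to 2 set-adjusted, and from 0 to 1 lower in the middle set, and from 0 to 3 pairs passed for the ratios. Calls among all genes ranged from 0 to 3011 higher and 0 to 2293 lower over all libraries. Set-adjusted they ranged from 0 to 166 and 0 to 35, and in the middle set from 0 to 125 and 0 to 8. The middle-set ratios stayed at 0 pairs, where the design cannot pass 1 pair alone. A filter for the ratios was not applicable. The cause of these moves was not tested.

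The replicate numbers did not pair the libraries: same-numbered libraries correlated at 0.0636, -0.0770, -0.00671, 0.0631 and 0.00430, and 0 of 5 correlated best with their own number. Numbers 6 to 10 occur only among the metformin libraries, so a block for replicate number takes the whole high set out of the comparison. The fold changes with the block thus compare the controls with metformin 1 to 5 alone. With the replicate block 0 were called higher and 0 lower (8 and 2 at an unadjusted p under 0.05, edgeR), beside 0 and 0 of all 14432 genes. Log2 fold changes that turned sign over all libraries were, with the block, IDH2 -0.16, IDH3B -0.19, SUCLG1 -0.078, FH 0.22, PDPR 0.021 and GOT1 0.10, and without the high set IDH2 -0.10, IDH3B -0.15, FH 0.29, PDPR 0.10 and GOT1 0.16. GOT1 was 0.038 with RLE factors, 0.0053 with upper quartile factors and 0.039 with DESeq2, and IDH3B was -0.014 with no filter. Set-adjusted, SUCLG2 was 0.00816 with RLE factors, 0.00830 with DESeq2 and 0.014 in the middle set only, and GOT1 -0.00627 with no filter.

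Leaving out single libraries turned the sign of the following values, none of them called. Over all libraries the ranges were -0.20 to 0.00030 for FH, -0.043 to 0.085 for GOT1, -0.30 to 0.012 for IDH1, -0.057 to 0.23 for IDH2 and -0.075 to 0.14 for IDH3B. Set-adjusted they were -0.13 to 0.056 for DHTKD1, -0.15 to 0.022 for DLD, -0.024 to 0.33 for GLUD1, -0.096 to 0.077 for GOT1, -0.17 to 0.089 for MDH1, -0.32 to 0.046 for OGDH, -0.10 to 0.15 for PDP2 and -0.087 to 0.11 for SUCLG2. For ratios they were -0.51 to 0.028 for MPC1/MPC2, -0.36 to 0.11 for PDHB/PDHA1 and -0.13 to 0.20 for MDH1/MDH2 over all libraries, and -0.094 to 0.30 for GOT1/GOT2 and -0.0011 to 0.32 for MDH1/MDH2 in the middle set.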
